A study of Mus musculus with 167 samples.

Results

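The azurophil granule genes Prtn3, Elane, Ctsg, Mpo and Ms4a3 were described in single lymphoid-primed multipotent progenitors (LMPPs), early blood progenitors of mouse bone marrow. The 5 genes were taken from a fixed list of symbols, matched to the Ensembl identifiers of the deposited table, which holds 38924 genes, and all 5 were found. The cells came from wild-type C57BL/6J female mice of 4 months or 14 months, with no treatment named, and were sorted at both ages as Flt3hi and CD34+ among cells that were Lin-, CD150-, Sca-1+ and c-Kit+. Each cell was captured on a Fluidigm C1 chip and its RNA was sequenced. A kept cell had at least 1000 genes at TPM 1 or more, TPM being transcript abundance scaled to a total of 1000000 in each cell, which left 64 of 84 columns of 4 months and 66 of 84 columns of 14 months. The columns of 14 months carry set number 4 or 5, with 29 and 37 kept cells. The meaning of the sets was not stated.

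Azurophil granules are the first granules that a developing neutrophil makes, in the promyelocyte. They store serine proteases that digest proteins of engulfed microbes and of the tissue, and myeloperoxidase, which makes hypochlorous acid from hydrogen peroxide and chloride. Their messages appear early in granulocyte-monocyte progenitors, are switched off before the neutrophil matures, and are used as a sign of myeloid priming in multipotent cells.

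The upstream sequences of the 5 genes are shown because members that are detected in the same cells are compared below. They are from RefSeq, build GRCm38.p6, on the strand of the gene and written 5′ to 3′, and each lies upstream of the RefSeq start site. Bases that GENCODE places in an exon are left out and at most 150 bases are printed, which gives 47 for Mpo and 150 for each other gene. The stretch of Prtn3 lies inside the GENCODE limits of that gene, which begin further upstream than the RefSeq start site. Prtn3 is chr10:79879464-79879613 (plus strand), Elane chr10:79886097-79886246 (plus), Ctsg chr14:56102575-56102724 (minus), Mpo chr11:87793534-87793580 (plus) and Ms4a3 chr19:11640852-11641001 (minus). Capitals mark the PU.1-type core GAGGAA and the RUNX-type core TGTGGT on either strand.
Prtn3: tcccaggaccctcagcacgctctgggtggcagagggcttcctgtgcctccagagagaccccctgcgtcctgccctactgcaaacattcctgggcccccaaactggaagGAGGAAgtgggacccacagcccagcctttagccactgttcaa
Elane: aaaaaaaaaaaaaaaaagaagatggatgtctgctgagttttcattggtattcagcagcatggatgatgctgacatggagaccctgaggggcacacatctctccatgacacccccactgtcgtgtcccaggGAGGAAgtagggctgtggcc
Ctsg: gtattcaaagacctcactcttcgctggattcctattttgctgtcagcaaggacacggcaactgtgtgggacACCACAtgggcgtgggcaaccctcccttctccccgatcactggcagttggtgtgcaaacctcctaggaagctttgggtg
Mpo: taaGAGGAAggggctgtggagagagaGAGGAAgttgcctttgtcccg
Ms4a3: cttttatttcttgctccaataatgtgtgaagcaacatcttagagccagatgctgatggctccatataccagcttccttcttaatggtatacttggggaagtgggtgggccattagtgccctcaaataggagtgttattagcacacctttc
Over the whole 250 bases before the start site, on both strands, GAGGAA was found in 4 of the 5 genes, all but Ms4a3, and in 23.1% of 27025 RefSeq promoters. Mpo had 2 copies, at -247 and -224. The copy of Ctsg lies at -216, outside the printed stretch. AACNG, the core of MYB sites, was found in the same 4 genes and in 74.1% of promoters. TGTGGT was found in Ctsg only, against 14.2% of promoters, and the C/EBP-type motif TTGCNNAA in none of the 5, against 9.55%. No matches to different motifs overlapped. The motifs were picked for factors known to act on these genes, and a match describes letters, not a bound site.

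The table has 84 columns of each age where 84 cells of 4 months and 83 of 14 months are labelled, so 1 older column is without a label. Animals are not named, so an age is 1 sample and no p-value was computed. The columns of 4 months carry no set number, and age and capture cannot be told apart. Sequencing depth is not kept in TPM. The median number of genes detected was 3974.5 at 4 months, 3230 in set 4 and 3376 in set 5, and the median mitochondrial share was 12.4%, 20.5% and 15.8%. Of the gate's genes, Flt3 was detected in 64 of 64 and 61 of 66 cells, Cd34 in 57 and 58, Kit in 43 and 35, Ly6a (Sca-1) in 25 and 25, and Slamf1 (CD150) in 0. In set 5, 11 columns numbered 72 to 90 stood apart for Elane, and columns 77 and 85 had far more granule message than any other kept cell. They were noticed in the data. The limits 72 and 90 follow Elane itself, and no 4-month cells were left out in a like way. Values without these columns therefore describe the remaining cells and cannot show what a difference between the ages depends on. Levels, shares, counts of genes per cell and differences that these columns moved are given with and without them. Co-detection with lymphoid and myeloid genes and the ranking of like genes include them.

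Prtn3 and Mpo were found in most LMPPs of both ages, Ctsg in fewer, and Elane and Ms4a3 in few. The share of cells with the gene, at TPM 1 or more, ran from 78.1% (Prtn3) to 4.69% (Ms4a3) at 4 months and from 75.8% (Prtn3) to 6.06% (Ms4a3) at 14 months. The order Prtn3, Mpo, Ctsg, Elane, Ms4a3 was the same at both ages. At each age the intervals of neighbours in that order overlapped, except those of Mpo and Ctsg. All intervals here are exact (Clopper-Pearson) 95% binomial intervals and cover counting error only.

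**Figure D1:**
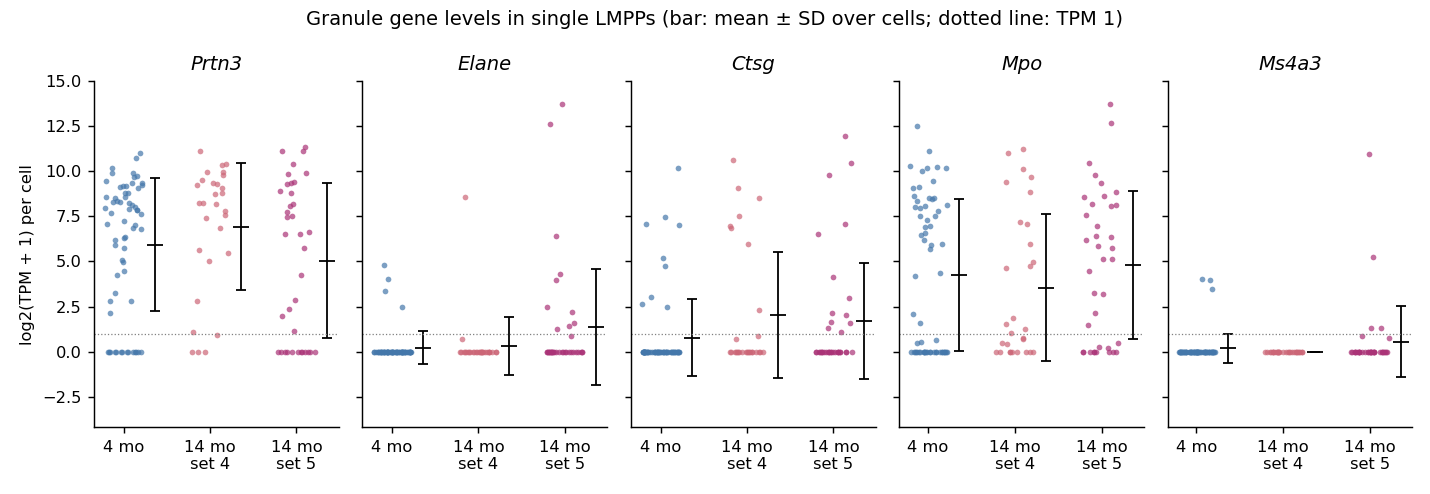
Each point is 1 kept cell, plotted as log2(TPM + 1) for each granule gene in the 64 cells of 4 months, 29 of set 4 and 37 of set 5; the black bar is the mean ± SD over cells. Prtn3 and Mpo spread from 0 to high levels in all 3 groups, while most cells lie at 0 for Elane, Ctsg and Ms4a3.

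Prtn3 encodes proteinase 3, a neutrophil elastase-like protease. At 4 months its level ran from 0 to 2081 TPM with a median of 175, and at 14 months from 0 to 2603 with a median of 179. The ranges overlap almost whole, and the medians lie close together. The gene was detected in 50 of 64 cells (78.1%, interval 66.0 to 87.5%) and in 50 of 66 (75.8%, 63.6 to 85.5%). Mean log2(TPM + 1) was 5.93 ± 3.67 (SD over cells, n = 64) and 5.87 ± 4.05 (n = 66). The 14-month sets differed more than the ages did. Set 4 had it in 25 of 29 cells (86.2%) with a median of 295 TPM, and set 5 in 25 of 37 (67.6%) with a median of 90.1 TPM. In the 26 cells of set 5 outside the columns 72 to 90 the share was 53.8% and the median 2.73 TPM. Where it was detected it was seldom low: 46 of the 50 cells at 4 months and 44 of the 50 at 14 months had at least 10 TPM.

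Elane encodes neutrophil elastase, which lies next to Prtn3 in the genome. At 4 months it ran from 0 to 26.8 TPM and at 14 months from 0 to 13815 TPM, with a median of 0 at both. The low ends are the same, and only cells of 14 months reached above 26.8 TPM. It was detected in 4 of 64 cells (6.25%, 1.73 to 15.2%) and in 11 of 66 (16.7%, 8.62 to 27.9%), and these intervals overlap. Of the 11 cells, 10 were in set 5 (27.0%) and 1 in set 4 (3.45%). Without the columns 72 to 90 of set 5 the 14-month share was 1.82% of 55 cells. Mean TPM was 0.872 at 4 months and 312 at 14 months, and 7.92 at 14 months without the 2 highest cells.

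Ctsg encodes cathepsin G, a chymotrypsin-like granule protease. It ran from 0 to 1181 TPM at 4 months and from 0 to 3906 TPM at 14 months, with a median of 0 at both. The gene was detected in 9 of 64 cells (14.1%, 6.64 to 25.0%) and in 21 of 66 (31.8%, 20.9 to 44.4%), and the ends of the intervals overlap. Both sets lay above the 4-month share, with 8 of 29 cells in set 4 (27.6%) and 13 of 37 in set 5 (35.1%). Without the columns 72 to 90 the 14-month share was 23.6%, and set 5 had 5 of 26 cells (19.2%), fewer than set 4. Among cells with the gene, the median level was 35.8 TPM in the 4-month group, 153 TPM in set 4 and 6.99 TPM in set 5. In set 5 outside the columns 72 to 90 it was 91.7 TPM. At a limit of 100 TPM, 4 cells of 4 months and 10 of 14 months had it.

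Mpo encodes myeloperoxidase, the haem enzyme of the granule. It ran from 0 to 5902 TPM at 4 months (median 18.4) and from 0 to 13569 TPM at 14 months (median 15.0). Apart from the highest cells the ranges overlap. The gene was detected in 35 of 64 cells (54.7%, 41.7 to 67.2%) and in 41 of 66 (62.1%, 49.3 to 73.8%). Mean log2(TPM + 1) was 4.24 ± 4.21 (SD, n = 64) and 4.25 ± 4.11 (n = 66). Set 4 had 16 of 29 cells (55.2%) and a median of 1.43 TPM, and set 5 had 25 of 37 (67.6%) and a median of 34.8 TPM. With all columns the sets stood in the opposite order to Prtn3. Outside the columns 72 to 90, set 5 had 14 of 26 cells (53.8%) and a median of 5.04 TPM, so the share was no longer above that of set 4. Mean TPM was 314 and 514, and 192 and 215 without the 2 highest cells of each age.

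Ms4a3 encodes a tetraspan membrane protein of granulocyte-monocyte progenitors. It ran from 0 to 15.2 TPM at 4 months and from 0 to 1992 TPM at 14 months, with a median of 0. It was detected in 3 of 64 cells (4.69%) and in 4 of 66 (6.06%), all 4 of them in set 5 within the columns 72 to 90. In set 4 none of 29 cells had it, for which the exact interval reaches 11.9% and a floor of 3 counts 10.3%. Mean TPM was 0.625 and 30.8, and a single cell held 97.9% of the 14-month sum.

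How much of each gene's signal sat in few cells differed between the members. Prtn3 was the most evenly spread: the highest cell held 10.6% of its summed TPM at 4 months and 9.25% at 14 months, and 9 and 8 cells held 50%. For Mpo the highest 2 cells held 40.7% and 59.4%. Ctsg had 79.8% and 58.0% of its sum in 2 cells, and Elane 75.2% and 97.5%. Ms4a3 had 74.4% and 99.8% of its sum in 2 cells. The median over all 9224 genes measured (found in a mean of at least 10% of cells over the ages) was 41.1% at 4 months and 49.2% at 14 months. A gene found in few cells must have its sum in few cells, so the members were also set beside genes detected in a share within 2 points of their own. At 14 months the highest 2 cells held a median of 25.3% of the sum for the 203 genes like Mpo and 61.1% for the 1057 genes like Elane, both lower than the member. Without columns 77 and 85 Mpo had 32.4% against 25.9% in like genes and Elane 90.6% against 67.3%. Without the columns 72 to 90 Mpo had 37.0% against 32.1%, while Elane had 100% and so did the median of its like genes. Ms4a3 at 14 months had 99.8% against 88.1% with all columns, and 93.0% against 96.2% without columns 77 and 85. At 4 months Mpo (40.7% against 28.7%) and Ctsg (79.8% against 64.9%) also lay above their like genes. Elane (75.2% against 86.7%) and Ms4a3 (74.4% against 96.5%) lay below theirs at that age. For Prtn3 the like genes had a median of 19.0% at 4 months and 20.0% at 14 months, against its 19.2% and 17.2%. The width of 2 points was chosen after seeing the data.

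**Figure D2:**
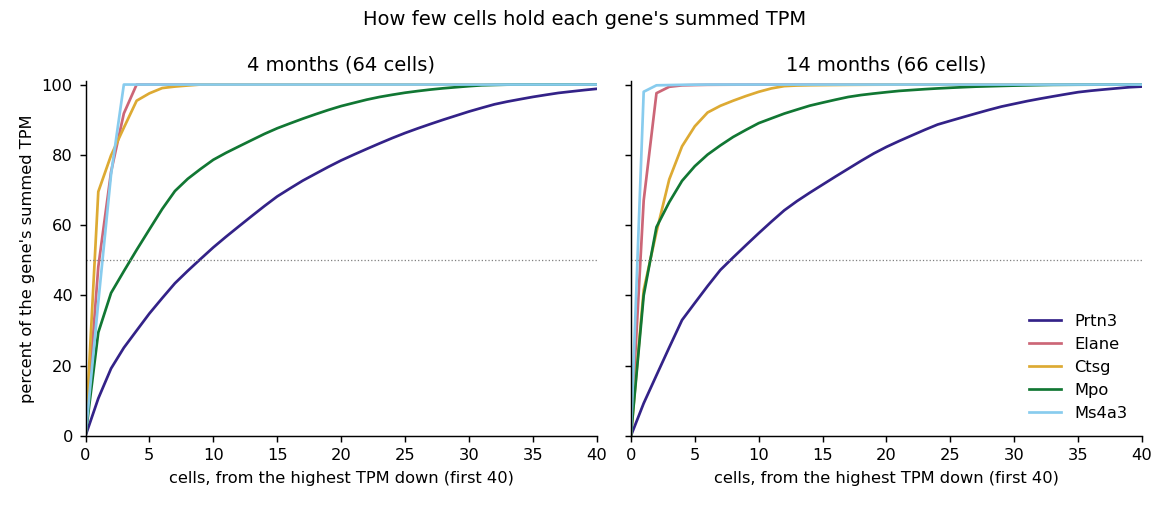
The curves add up each gene's TPM from the highest cell down, as a percent of its sum, over the first 40 cells at 4 months (left) and 14 months (right). Prtn3 climbs slowest at both ages, Elane and Ms4a3 reach 97.5% and 99.8% with 2 cells at 14 months, and the dotted line marks 50%.

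The 14-month means of Mpo, Elane, Ctsg and Ms4a3 rested in large part on 1 cell, column 85 of set 5. It had 13815 TPM of Elane, 13569 of Mpo, 3906 of Ctsg, 2603 of Prtn3 and 1992 of Ms4a3, which together made 3.59% of its transcripts. Column 77 had 6607 TPM of Mpo, 6299 of Elane, 1409 of Ctsg and 1369 of Prtn3, and 0 of Ms4a3. These were the 2 highest cells for Mpo and Elane, and the next kept cell in the summed level of the 5 genes, of 4 months, had 5902 TPM, all of it Mpo. Column 85 had 4064 genes detected and column 77 had 1041. Srgn, the proteoglycan core that packs granule proteins, was at 8348 and 3838 TPM in them. Cd34 was at 344 and 489 TPM and Flt3 at 19.1 and 319, while Kit was at 0.63 and 0 and Dntt, the lymphoid terminal transferase, at 0.49 and 0. Of the markers of mature neutrophils, Ly6g, S100a8, S100a9, Ngp, Camp and Ltf were at 0 in both, while Itgam (CD11b) was at 116 TPM in column 85 and 0 in column 77. Csf3r, the G-CSF receptor, was at 135 and 0. Ly6c2 was at 1457 TPM and the basophil protease Mcpt8 at 309 TPM in column 85, and both at 0 in column 77. These cells and genes were picked after seeing the values.

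At least 1 of the 5 genes was detected in 57 of 64 cells at 4 months (89.1%, 78.8 to 95.5%) and in 57 of 66 at 14 months (86.4%, 75.7 to 93.6%). At least 3 were detected in 9 cells (14.1%, 6.64 to 25.0%) and in 21 cells (31.8%, 20.9 to 44.4%). So the share with any granule gene was alike within counting error, while cells with several were more frequent among all 14-month cells, with intervals that overlap at their ends. Set 4 had 6 of 29 cells with at least 3 (20.7%) and set 5 had 15 of 37 (40.5%). All 11 columns from 72 to 90 had at least 3. Without them set 5 had 4 of 26 (15.4%) and the 14-month cells 10 of 55 (18.2%, 9.08 to 30.9%). These columns were picked by Elane, 1 of the 5 genes, so a lower share without them was fixed by that choice. No 4-month cells were left out in a like way, so the lower share cannot be set against that of 4 months. At a detection limit of 10 TPM, with all columns, the 14-month share was also 18.2%, and the 4-month share was 10.9%. All 5 genes were found together in 1 cell of 4 months and in 2 of 14 months.

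**Figure D3:**
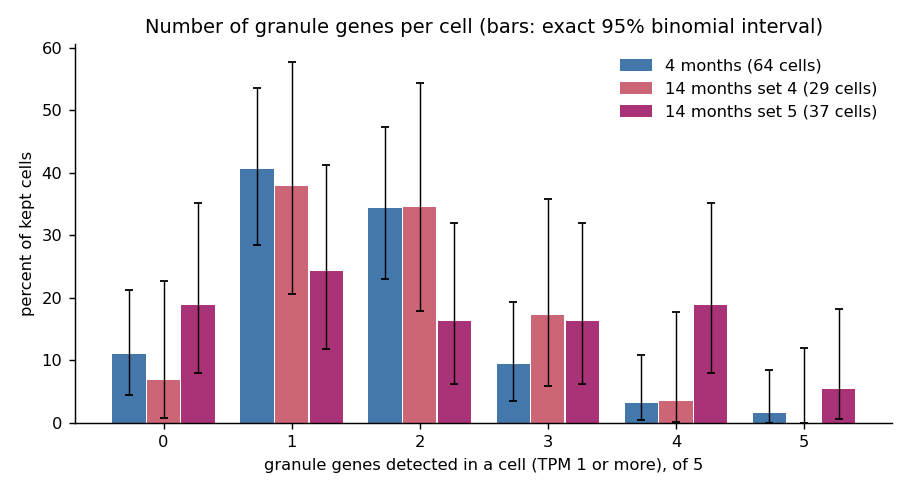
Bars give the percent of kept cells with 0 to 5 of the granule genes at TPM 1 or more in the 64 cells of 4 months, 29 of set 4 and 37 of set 5; error bars are exact 95% binomial intervals. Most cells of 4 months and of set 4 have 1 or 2 genes, and set 5 has larger shares at 0 and at 4.

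Cells in which more genes of any kind were detected also had more granule genes. The Spearman correlation across cells between the count of members and the number of genes detected was 0.54 in 64 cells of 4 months, 0.32 in 29 of set 4 and 0.41 in 37 of set 5, or 0.74 in the 26 outside the columns 72 to 90. In each case the 2 counts come from 1 library per cell. Of the 9 cells of 4 months with at least 3 members, 8 were at or above the median of genes detected, and of the 21 cells of 14 months 13 were. When 44 cells of each age were matched on genes detected, 6.82% and 31.8% had at least 3. Matching without the columns 72 to 90 left 40 cells of each age, with 5% and 20.0%.

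The rarer genes were mostly found in cells that also had Prtn3 and Mpo, each of which most cells had. All 9 Ctsg cells of 4 months had Prtn3 and Mpo, and at 14 months 19 of 21 had Prtn3 and 19 of 21 had Mpo, or 11 of 13 and 11 of 13 without the columns 72 to 90. By the product of the shares, 7.03 and 15.9 cells would have Ctsg with Prtn3, and 4.92 and 13.0 Ctsg with Mpo. Without the columns 72 to 90 the 14-month products were 9.22 and 7.09. Every Ms4a3 cell, 3 and 4, had both Prtn3 and Mpo, beside products of 2.34 and 3.03 for Prtn3 and 1.64 and 2.48 for Mpo. The 11 Elane cells of 14 months had both as well, whereas of the 4 at 4 months 3 had Prtn3 and 1 had Mpo. Of the 11, all but 1 lie in the columns 72 to 90, where every column had Prtn3 and Mpo. The products for Elane were 3.125 and 8.33 with Prtn3, and 2.19 and 6.83 with Mpo. The largest numbers of cells had Prtn3 with Mpo alone (20 at 4 months, 14 at 14 months) or Prtn3 alone (19 and 14).

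Prtn3 and Mpo, the common members, were found together little more often than their shares give. They were both detected in 29 cells of 4 months, where the product of the shares gives 27.3, and in 35 of 14 months, where it gives 31.1 (24 and 21.3 without the columns 72 to 90). Their levels had a Spearman correlation across cells of 0.05 at 4 months, 0.36 in set 4 and 0.50 in set 5, or 0.41 outside the columns 72 to 90. For Ctsg with Mpo the correlations were 0.33, 0.42 and 0.47. These are descriptions across cells, in which both values of a point come from 1 library. Prtn3 without Mpo was seen in 21 cells of 4 months and 15 of 14 months, and Mpo without Prtn3 in 6 and 6.

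**Figure D4:**
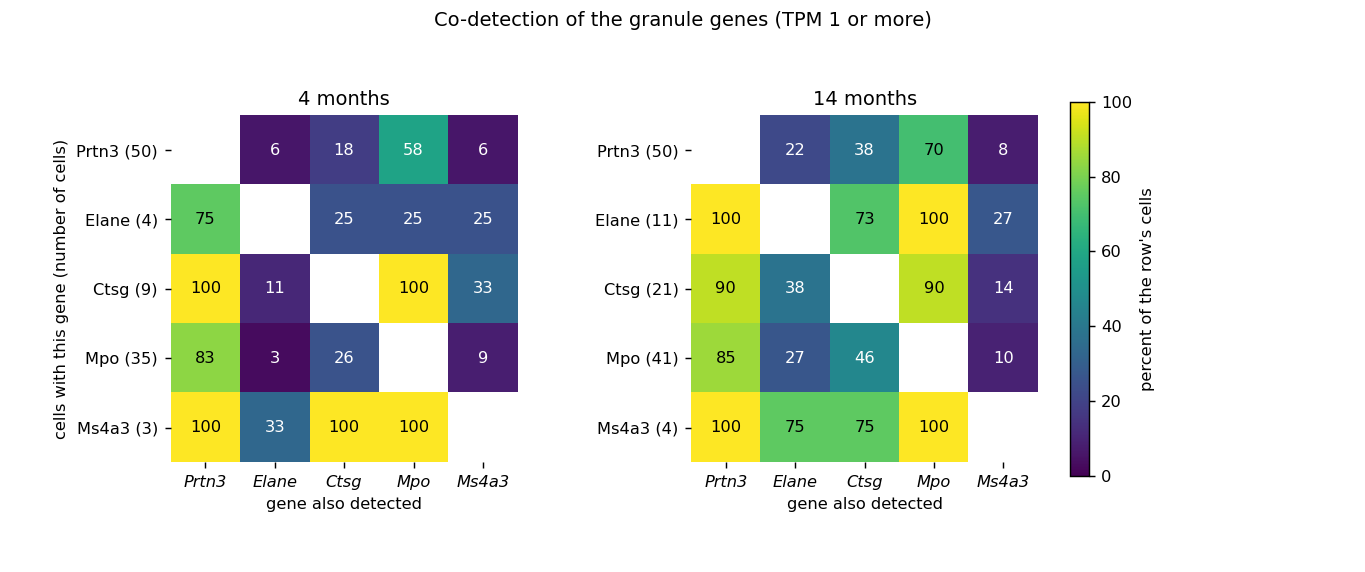
Each square gives the percent of the cells with the row's gene (number of cells in brackets) that also had the column's gene at TPM 1 or more, at 4 months (left) and 14 months (right). The Prtn3 and Mpo columns are high in the rows of Ctsg and Ms4a3 at both ages, and the Elane row differs between the ages. Of the 11 Elane cells of 14 months, 10 are in the columns 72 to 90.

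Granule genes were detected beside early lymphoid genes. Dntt was found in 30 of the 35 Mpo cells of 4 months (26.3 by the product of the shares) and in 36 of the 41 of 14 months (35.4). Of the Prtn3 cells 36 of 50 and 43 of 50 had Dntt, near the product of 37.5 and 43.2. Of the Ctsg cells 8 of 9 and 15 of 21 had Dntt (products 6.75 and 18.1). For Elane it was 2 of 4 and 8 of 11 (3 and 9.5), and for Ms4a3 2 of 3 and 3 of 4 (2.25 and 3.45). So these rarer genes lay below the product at 14 months. The Spearman correlation with Dntt across cells was -0.19 and -0.24 for Prtn3, 0.31 and -0.13 for Mpo, and 0.16 and -0.31 for Ctsg. Within set 4 and set 5 it was 0.12 and -0.36 for Prtn3, -0.11 and -0.11 for Mpo, and -0.25 and -0.29 for Ctsg. Il7r, the interleukin 7 receptor of lymphoid precursors, was found in 4 of the 35 and 11 of the 41 Mpo cells, beside products of 2.73 and 8.08. The myeloid factor Irf8 was found in 23 of the 35 Mpo cells (product 17.0) and in 17 of the 41 (product 12.4). Other myeloid genes lay nearer the product. Csf3r was found in 25 and 17 Mpo cells (products 25.2 and 14.3), Cebpa in 10 and 8 (9.84 and 6.21) and Csf1r in 12 and 3 (9.30 and 2.48). Irf8 was added as a partner after earlier values were known.

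Elane in set 5 followed the column numbers. It was above 0 in all 11 columns numbered 72 to 90 and in 0 of the 28 others, and the meaning of the numbers was not stated. Outside columns 77 and 85 it ran from 0.85 to 84.1 TPM in these columns. Ms4a3 was above 0 in 6 of the 11 and in none of the others. Prtn3 and Mpo were detected in 11 of the 11, against 14 each of the 26 other kept columns (53.8%), and Ctsg in 8 of the 11, against 5 of 26 (19.2%). The median number of genes detected was 3052 in the 11 and 3424 in the 26. A few other genes were also found mostly in these columns, in numbers near those of other stretches of columns. A first search, for genes above 0 in at least 8 of the 11 and at most 2 of the others, gave 5 genes (Elane, Irf2bp1, Alas1, Smim13 and 1300002E11Rik). The other 28 windows of 11 consecutive columns gave 0 to 5, and those that share no column with the 11 gave up to 4. A second search, set up after the first, took genes of at least 500 TPM in column 85 that were above 0 in at most 1 of the 28 others. It gave 9 genes, of which Elane, Ms4a3, Igsf6 and Bbs10 were above 0 in at least 6 of the 11. Column 85 is itself among the 11, and no other column was searched in this way. Of the 4 pairs of kept cells whose log2(TPM + 1) values correlated above 0.75 over the measured genes, 3 lay within the 11 columns, at up to 0.89. The other pair, column 94 of set 5 with column 76 of set 4, was the highest of all, at 0.97. These had 933 and 1003 TPM of Prtn3 and 57.3 and 62.1 TPM of Mpo. They were counted as separate cells, and why they are alike was not tested. The median correlation was 0.41 within the 11 columns and 0.39 within the rest of set 5. What sets the columns 72 to 90 apart was not tested.

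**Figure D5:**
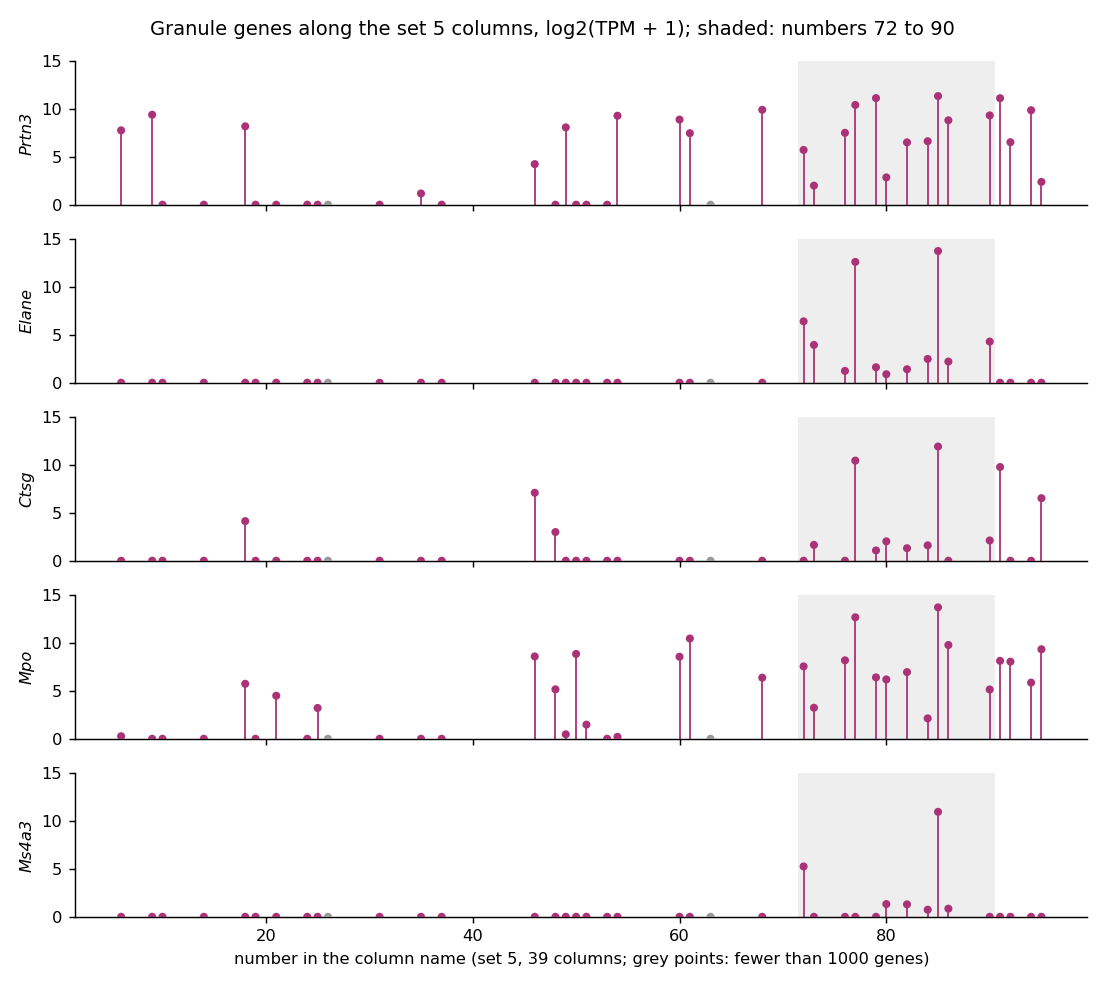
The 39 columns of set 5 are drawn in the order of the number in their names, with log2(TPM + 1) of each granule gene as a stem; the shaded band covers numbers 72 to 90 and grey points have fewer than 1000 genes. Elane and Ms4a3 are above 0 only in the band, while Prtn3, Mpo and Ctsg also occur outside it.

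Between the ages Ctsg was higher at 14 months by the limit used, and so was Elane when all columns were kept. Prtn3 and Mpo were within the limit, and Ms4a3 was found in too few cells to count as measured. Elane counted as measured only through the 14-month cells: its mean share over the ages is 4.03% without the columns 72 to 90, under the 10% needed, so its value is a description. The measure is the difference of mean log2(TPM + 1), 14 months minus 4 months, less the median difference of the 9224 measured genes. A gene was called where that relative difference was 1 or more, or -1 or less. The median difference was -0.36, and 77.0% of genes lay below 0, so a member at the same mean as before ranks above most genes. By this limit 3.37% of measured genes were higher and 5.08% lower. Ctsg had mean log2 levels of 0.78 ± 2.15 (SD, n = 64) and 1.85 ± 3.33 (n = 66), a relative difference of 1.43. Elane had 0.23 ± 0.92 and 0.91 ± 2.66, a relative difference of 1.04. For Mpo and Prtn3 the relative difference was 0.36 and 0.29, and for Ms4a3 0.49. Each of these is smaller than the SD over cells at 14 months.

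Ctsg was called against either set on its own, at 1.69 for set 4 and 1.25 for set 5. Without the columns 72 to 90 it was at 1.24 over both sets but at 0.75 for set 5 alone, which is within the limit. Elane was called against set 5 (1.48) but not set 4 (0.52). Its value was 0.32 without the columns 72 to 90, 0.65 without columns 77 and 85, and 0.22 in cells matched on genes detected. None of these reaches the limit. The columns were picked by their Elane and hold all set 5 cells above 0, so a fall without them was fixed by that choice. In the same matched cells Mpo was called, at 1.22. Without the columns 72 to 90 Mpo was at -0.25. Prtn3 stood at 1.42 for set 4 and -0.55 for set 5, or -1.57 for set 5 without the columns 72 to 90. Mpo stood at -0.26 for set 4 and 0.89 for set 5, or -0.22 for set 5 without them.

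Between the sets at 14 months, set 5 minus set 4, Mpo was higher by 1.15 and Prtn3 lower by 1.97. Of all measured genes 6.9% were higher and 4.47% lower by the limit. Elane was higher by 0.97 and Ctsg lower by 0.44, neither of them called. Without the columns 72 to 90 the value of Mpo was 0.05, no longer called, that of Prtn3 -2.97, that of Ctsg -0.93 and that of Elane -0.38. The difference between the 2 sets, of the same age, was larger for Prtn3 than its pooled difference between the ages with and without these columns.

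Other genes of the granule and its pathway lay on both sides of the median gene. Of 20 genes for granule contents and their processing, 17 were measured, 1 was higher and 2 were lower by the limit, with a median of 0.08 beside 0 for all genes. Srgn was the highest (1.60), followed by the chaperone Canx (0.94), and the lowest were the lysosomal protease Ctsd (-1.27) and the chaperone Calr (-1.07). Ctsc, which activates the granule proteases, was at 0.81 and was detected in 18 and 22 cells. Lyz2, lysozyme, was detected in 41 and 37 cells.

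Of 12 regulators of granule genes, 10 were measured and none was called in either direction, with a median of -0.16. Cbfb (0.27) and Ets1 (0.15) were highest, and the myeloid factors Irf8 (-0.64) and Spi1, which encodes PU.1, (-0.40) lowest. Cebpa, the C/EBP factor of early granulocyte progenitors, was detected in 18 and 10 cells. Of 10 granulocyte-monocyte receptors, 7 were measured and none was called, with a median of 0.21. Csf2rb (0.62) and Clec12a (0.48) were highest. Csf3r, the G-CSF receptor (-0.59), and Csf1r, the M-CSF receptor (-0.52), were lowest, and Csf3r was detected in 46 cells of 4 months and 23 of 14 months.

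Genes of later granules and close relatives of the members were mostly not detected. None of 12 genes of specific and gelatinase granules was measured, and Ltf, Ngp, Olfm4 and Cd177 were at 0 in all kept cells. Camp had 364930 TPM in column 19 of set 5, a cell with 1021 genes and all 5 members at 0. Of 15 other leukocyte granule serine proteases, 1 was measured, Prss57 (-0.52, in 24 and 16 cells), and 10 were at 0 everywhere. Of 14 other MS4A genes, 2 were measured, Ms4a6b (0.28) and Ms4a6c (-0.07), and 7 were at 0. The haem peroxidases Epx, Lpo and Pxdn were at 0 in all kept cells.

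Markers of more mature cells were present at varied levels, and several defining ones were at 0. The summed level of 10 mature neutrophil markers had a median of 7.27 TPM (0.63 to 996) at 4 months, 2.38 (0.34 to 292) in set 4 and 6.39 (0 to 364930) in set 5. The highest value there is the Camp cell, and Ly6g, Ngp and Ltf were at 0 in all cells. Cxcr2 (53 of 64 and 37 of 66 cells) and Itgam (44 and 17) were detected in many, at mean levels of 7.25 and 7.81 TPM for Cxcr2 and 6.30 and 3.55 TPM for Itgam. For 10 monocyte markers the medians were 90.7 (0 to 1450), 73.0 (0 to 7335) and 76.6 (0 to 8369). For 8 basophil and mast cell markers all medians were 0, the highest values were 282, 111 and 311, and 6 of the genes were at 0, Cpa3 and Prss34 among them. Of 5 eosinophil markers Epx, Prg2 and Il5ra were at 0, and the highest sum was 2.27 TPM. The sort removes cells with CD11b or Gr-1, which mature neutrophils carry. The part of such cells in the granule signal was not tested.

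Among the other marker lists, 8 early lymphoid genes had medians of 835, 845 and 963 TPM in 4 months, set 4 and set 5 (ranges 0 to 4828, 0.67 to 3725 and 0.74 to 7077), and Dntt and Il7r were the 2 called, both higher. For 8 B cell markers the medians were 0, the highest sums 1378, 971 and 860, and Pax5 and Igll1 were at 0. For 8 T and NK cell markers the medians were 19.7, 211 and 156 (highest 1615, 1416 and 4136). Nkg7 was the 1 measured gene, called higher at 2.07, with Cd3e, Cd3g, Cd2, Ncr1 and Gzma at 0. For 8 megakaryocyte and erythroid markers they were 5.95, 1.31 and 1.38 (highest 601, 247 and 2232), with Gata1 and Epor at 0. For 8 stem cell markers they were 88.2, 13.6 and 13.7 (highest 4602, 697 and 1271), with Hlf called lower and Slamf1 at 0.

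The genes whose levels across cells were most like the mean of the 5 members were ranked by Spearman correlation, averaged over 4 months, set 4 and set 5. The 3 groups have 64, 29 and 37 cells. Lgals1, galectin 1, came first at 0.54, then Clec12a, a myeloid lectin receptor, at 0.53 and the proteasome activator Psme2 at 0.51. They were followed by Syngr2, Psmc1, Rpl27, Tex30, Ech1, Ran, Cdk6, Hspa8 and Pole4, down to 0.44. The lowest were Ctla2a (-0.28), BC025920, Vwf, Bcas3, Gtdc1 and Guf1. The median over 6482 genes was 0.15, with 95% of genes between -0.07 and 0.36. The mean of the members itself correlated with genes detected at 0.57, 0.36 and 0.45.

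Prtn3 (chr10:79874476-79883174) and Elane (chr10:79886247-79888215) are neighbours on the plus strand of mm10, 3072 bases apart, with gene limits from GENCODE. Prtn3 was detected in 50 cells of each age and Elane in 4 and 11. Cfd, which follows Elane, was found in 1.56% of cells of 4 months and in none of 14 months. The annotated start of Prtn3 overlaps the end of Plppr3, which lies on the minus strand, and the strand setting of the counting is not given. Ctsg (chr14:56099881-56102574, minus strand) lies 14607 bases from Mcpt8, which was found in 6.25% and 7.58% of cells. Mpo (chr11:87793581-87804413, plus) lies 2014 bases from Lpo, and Ms4a3 (chr19:11629496-11640851, minus) 5776 bases from Ms4a2, both at 0 in all kept cells.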

How the data were processed

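The deposited table holds TPM values made by the authors with RSEM 1.2.12 and Bowtie2 2.2.0 on build mm10, according to the submitters' processing notes. Each column sums to 1000000, so depth is unknown. Columns were tied to an age by the start of their names, and to set 4 or 5 by the number in it. No column of values was left unused (0).

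Computed here were shares of cells at TPM 1 or more, with exact binomial 95% intervals, and means of log2(TPM + 1) with a pseudocount of 1, which understates changes of low genes. Cells with at least 1000 genes were kept. No doublet caller was run. Symbols, for 37607 of 38924 identifiers, came from the GENCODE annotation. The scripts were tested on simulated data. The tools were scipy 1.17.1, pandas 2.3.3, numpy 2.4.6 and matplotlib 3.10.9 under Python 3.11.15.

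Named were the 5 members, at most 2 highest and 2 lowest genes of each list with others by their role, the 12 genes most like the members and the 6 least, and genomic neighbours. The members and lists were chosen with earlier results of these data known. Alternatives changed the detection limit, pseudocount, filters, scaling, sets, matching and the highest cells. Leaving out the columns 72 to 90, or 77 and 85, of set 5 was chosen after seeing the data. So were the limit of 1.5 times below which a difference counts as unmoved, and the motifs. Some genes of the lists are not reported here.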

Additional observations from a re-analysis of the deposited data

Results flagged for a closer look

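In the 38 columns with fewer than 1000 genes detected, which entered no comparison, Prtn3 was detected in 4 and Mpo in 10. Of the 10, 7 were among the 16 such columns of set 4, where Mpo reached 2467 TPM and Prtn3 2211 TPM. Elane was at 2804 TPM in 1 of them, a set 4 column with 506 genes. The other members, Ctsg and Ms4a3, were not detected in any of the 38.

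The 2 sets of 14 months lay on opposite sides of the 4-month cells for Prtn3 and for Mpo. Set 5 minus set 4 was -1.97 for Prtn3 and 1.15 for Mpo on the relative log2 scale. For Mpo this holds only with the columns 72 to 90: without them set 5 was at -0.22 against the 4-month cells, the same side as set 4 at -0.26, and set 5 minus set 4 was 0.05. For Prtn3 it was -2.97 without them. The meaning of the sets was not stated and the difference between them was not tested.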

How the results depend on the processing

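The members called between the ages, Elane and Ctsg, had a positive relative difference in all 17 alternatives. For a rare gene this sign says little: in the main setting Ltf, at 0 in all kept cells, had 0.36. Without the columns 72 to 90 Elane was positive although its mean log2(TPM + 1) was 0.17 at 14 months and 0.23 at 4 months. With set 4 alone at 14 months Prtn3 was at 1.42, Mpo at -0.26 and the share with at least 3 genes 20.7%. With set 5 alone Prtn3 was at -0.55. A pseudocount of 0.1 gave 1.67 for Elane and 2.29 for Ctsg, and one of 10 gave 0.76 for Ctsg. In matched cells Elane was at 0.22 and Mpo at 1.22. Without the columns 72 to 90 of set 5 Elane was at 0.32, Mpo at -0.25 and the 14-month share with at least 3 genes 18.2%. The detection limit of 10 TPM gave 18.2% as well, beside 10.9% at 4 months. At 100 TPM the shares with at least 1 gene were 71.9% at 4 months and 63.6% at 14 months, and those with at least 3 were 4.69% and 10.6%. With no filter on cells, 72.6% of 4-month columns and 79.8% of 14-month columns had at least 1 gene, the opposite order to the kept cells. Of 17 alternatives, Ctsg was at or above 1 in 16 and Elane in 5. Prtn3 and Mpo were each below 0 in 2. The cause of these shifts was not tested, beyond what each alternative leaves out. No paired analysis was possible because animals are not named, and no result comes from a test. Depth is unknown, so a gene at 0 in a cell is not detected there rather than absent.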
